A study of Homo sapiens with 9 samples.

Results

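The genes described here are 10 SOX genes other than the one that was depleted: SOX2, SOX3 and SOX21 of the SOXB group, SOX4, SOX11 and SOX12 of the SOXC group, SOX7, SOX17 and SOX18 of the SOXF group, and SOX15, which stands in a group of its own. They were taken by name, as 10 of the 18970 gene symbols in the count tables, by a rule that uses no measured value, although earlier results of these data were known when the list was drawn up. The cells were cranial neural crest cells (CNCCs) at passage P4, grown from the human embryonic stem cell line H9, in 2 clones (S9CC13 and S9CC47) whose SOX9 alleles carry a degron tag before the stop codon. The tag was present in every group, the controls included, and dTAGV-1, a small molecule that brings the tagged SOX9 protein to a ubiquitin ligase, was the agent compared. Samples were taken after 0h, 3h or 24h with dTAGV-1 at 500 nM, with a labelled SOX9 level of 100% at 0h and 0% at the later times, and each time held the same 3 cultures (S9CC13_R6, S9CC47_R5 and S9CC47_R6, named for clone and differentiation batch R5 or R6). All cells stayed in a crest medium with BMP2 and CHIR-99021, DMSO was the vehicle, and 4-thiouridine (4sU, 100 uM) was given for the last 2 h, which began 1 h into the 3h treatment and 22 h into the 24h treatment.

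SOX proteins share an HMG box, a domain that binds the minor groove of DNA and bends it, and they act largely through the partner factors that bind beside them. SOX2 and SOX3 keep stem cells and neural progenitors undifferentiated, and SOX21 counteracts them in neural progenitors. SOX4, SOX11 and SOX12 are strong to moderate activators in progenitors of the nervous system, the neural crest and the mesenchyme, where they are often expressed together. SOX7, SOX17 and SOX18 act in endothelium, and SOX17 also in definitive endoderm. SOX9, the depleted factor, directs cartilage formation and neural crest development and belongs to another group, SOXE.

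In SLAM-seq, RNA made during the labelling carries 4sU, which is read as T>C conversions. Total reads are all reads of a gene, and T>C reads are those with such a conversion. Depth ranged from 16955633 to 28782678 total reads per sample and from 3130673 to 5475800 T>C reads, and the T>C share of a library lay between 15.9% (S9CC13_R6 at 3h, the lowest of all) and 21.3%. All 10 cranial neural crest markers that were listed (among them TFAP2A, TWIST1, NR2F1 and MSX1) had a mean of at least 1 CPM, where CPM is a gene's reads scaled to the library size (CPM of all genes sum to the same total in every sample). Reads came from transcript 3′ ends, so CPM was not divided by gene length. SOX10, a marker of early migratory crest, had 10 total reads over all 9 samples. In these bulk samples, fewer cells of a type and less RNA per cell cannot be told apart.

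The 10 SOX genes fell into 3 levels. The SOXC genes were high, with a mean over the 9 samples of 1166 CPM for SOX4 (SD 141), 709 for SOX11 (SD 101) and 238 for SOX12 (SD 26.9) in total reads, which ranked them 106, 194 and 708 among the 18970 genes. In T>C reads the same genes stood at 2291, 1436 and 272 CPM and ranked 15, 42 and 691. SOX7 and SOX2 were near 1 CPM, between 0.725 and 1.56 CPM of total reads for SOX7 and between 0.225 and 0.936 CPM for SOX2. The other 5 genes had a mean below 0.2 CPM. The order SOX4, SOX11, SOX12, SOX7 held in 9 of 9 samples in both tables, and the ranges over samples of these neighbours did not overlap. From SOX7 downward the ranges of neighbours overlapped. SOX7 exceeded SOX2 in 8 of 9 samples and SOX2 exceeded SOX15 in 8 of 9 in total reads, while SOX15, SOX3 and SOX18 did not differ beyond their spread.

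**Figure D1:**
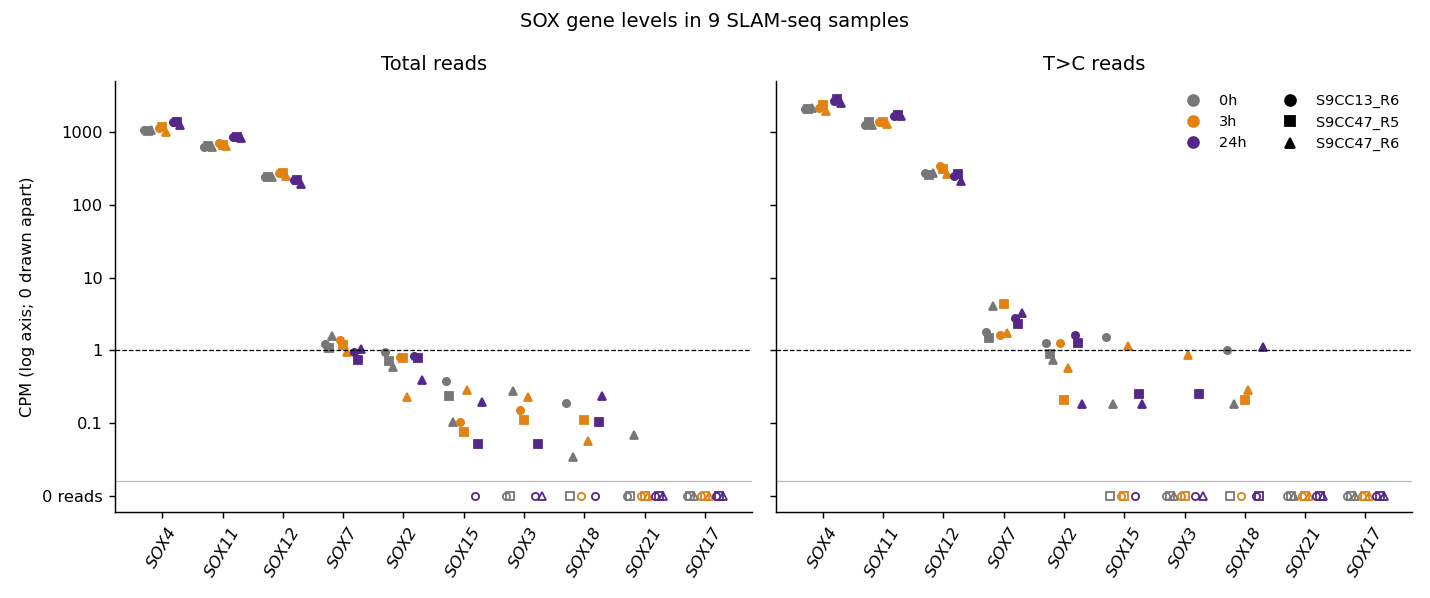
Level of each of the 10 SOX genes in CPM (log axis) in total reads (left) and T>C reads (right), with a point for each of the 9 samples, coloured by time and shaped by culture. Samples with 0 reads are drawn as open symbols under the grey line, and the dashed line marks 1 CPM. SOX4, SOX11 and SOX12 lie at 190 CPM or above in every sample, and only SOX7 and SOX2 of the other 7 genes have reads in all 9 samples.

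A gene was tested where it reached 1 CPM in at least 3 samples of a table. By that filter, 5 of the 10 genes were tested in T>C reads (SOX2, SOX4, SOX7, SOX11 and SOX12) and 4 in total reads (the same without SOX2). The genes below it in both tables were SOX3, SOX15, SOX17, SOX18 and SOX21. SOX17 had 0 reads in all 9 samples, which allows a level of up to 0.0151 CPM over the pooled total reads (3 reads in 198161772). SOX21 had 2 total reads, both in S9CC47_R6 at 0h, and no T>C read. SOX3 had 19 total reads over the 9 samples, of which 8 were in S9CC47_R6 at 0h, and 4 samples were at 0. SOX15 had 30 total reads, between 0 and 8 per sample, and SOX18 had 17, between 0 and 6. Of the SOX18 reads, 13 of 17 carried a T>C conversion, against 13 of 30 for SOX15 and 4 of 19 for SOX3. At these counts no difference between times or cultures was detectable, and neither absence of expression nor a change can be read from them.

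SOX4, which supports survival and differentiation of progenitors in many tissues, is a gene with a single exon on hg38 chr6:21593751-21598619, plus strand. The 250 bases before its start and before that of SOX12, the 2 SOXC genes for which RefSeq promoter sequences (build GRCh38.p14) were used here, are shown because these genes moved in opposite directions in total reads at 24h. Both lie on the plus strand, at chr6:21593501-21593750 for SOX4 and chr20:325302-325551 for SOX12. Capitals mark every match on either strand to the motifs searched: the SOX core ACAAAG or ACAATG, the CCAAT box (ATTGG on the opposite strand) and the octamer ATGCAAAT, a site of POU factors.
SOX4: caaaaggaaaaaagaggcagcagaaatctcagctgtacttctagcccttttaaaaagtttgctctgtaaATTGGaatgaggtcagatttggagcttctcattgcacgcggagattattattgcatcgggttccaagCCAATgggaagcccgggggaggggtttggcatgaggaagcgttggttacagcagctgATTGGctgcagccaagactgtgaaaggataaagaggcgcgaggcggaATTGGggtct
SOX12: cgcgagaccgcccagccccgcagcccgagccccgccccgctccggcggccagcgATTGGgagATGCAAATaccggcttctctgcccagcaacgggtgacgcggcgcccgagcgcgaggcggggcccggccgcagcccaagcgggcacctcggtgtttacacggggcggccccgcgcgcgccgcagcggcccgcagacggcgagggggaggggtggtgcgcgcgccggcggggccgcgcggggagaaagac
The SOX4 window held 4 CCAAT boxes, 1 on the gene's strand and 3 on the other. A CCAAT box was present in 32.0% of the 35116 windows of this length, and 4 or more in 0.874%. The SOX12 window held 1 CCAAT box and 1 octamer, a motif found in 1.63% of windows. Neither window held a SOX core, where ACAAAG stood in 13.7% and ACAATG in 9.29% of windows. Base composition also differed, with 48.8% G and C and 8 CpG in SOX4 against 79.2% and 42 CpG in SOX12, where the median over all windows was 58.0% and 11. Among the other members with a window, SOX2 held 1 ACAAAG and 1 CCAAT box, and SOX3 and SOX21 held 1 CCAAT box each. The matches are a description of the letters only.

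Normalized T>C reads (counts divided by the sample's size factor) of SOX4 in S9CC13_R6, S9CC47_R5 and S9CC47_R6 started from 8570, 8450 and 8814 before treatment. The 3h values were 8701, 9787 and 7930, and those at 24h were 11086, 11475 and 10003. The 3 samples at 24h lay above all 6 others, and the 3h samples spread around the 0h samples. Compared with 0h, SOX4 rose at 24h by 0.38 on the log2 scale (SE 0.08, 1.3-fold, 95% interval 0.22 to 0.53), with a DESeq2 adjusted p of 0.000143, and it was higher in 3 of 3 cultures. Compared with 3h, the rise was 0.37 (SE 0.08, adjusted p = 0.00275). Total reads gave a rise of 0.35 against 0h (SE 0.07, adjusted p = 2.47e-05), with mean normalized reads of 23123 (SD 626), 23951 (SD 2400) and 28431 (SD 1861) in time order. At 3h the difference from 0h was 0.00 in T>C reads (interval -0.14 to 0.15) and 0.02 in total reads (interval -0.12 to 0.15), and neither passed the test.

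SOX11, which acts with SOX4 in neuronal and mesenchymal progenitors, has a single exon on hg38 chr2:5692384-5701385, plus strand. Its normalized T>C reads, in the same order of cultures, were 5190, 5679 and 5148 at 0h. They were 5695, 5735 and 5141 at 3h and 6825, 6986 and 6744 at 24h. The 24h samples were the 3 highest of the 9 and lay close together, whereas the 0h and 3h samples overlapped. SOX11 rose at 24h by 0.38 against 0h (SE 0.07, 1.3-fold, adjusted p = 1.4e-05) and by 0.35 against 3h (SE 0.08, adjusted p = 0.00265). In total reads it rose by 0.41 against 0h (SE 0.07, adjusted p = 7.04e-07) and by 0.36 against 3h (SE 0.08, adjusted p = 0.000215), in 3 of 3 cultures each. In CPM of total reads the 3 samples at 24h read 840, 840 and 837. The 3h difference was 0.04 in T>C reads (interval -0.10 to 0.17) and 0.05 in total reads (interval -0.09 to 0.18), and neither passed the test.

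SOX12, the weakest activator of the SOXC group, has a single exon on hg38 chr20:325552-330224, plus strand, and it went the other way in total reads. Its normalized total reads, by culture as above, were 5228, 5152 and 5359 at 0h. The values became 5921, 6084 and 5247 after 3h and 4621, 4658 and 4009 after 24h. Every 24h sample lay below every earlier sample. SOX12 fell by 0.19 on the log2 scale at 24h against 0h (SE 0.07, interval -0.34 to -0.05, adjusted p = 0.0785) and by 0.29 against 3h (SE 0.08, adjusted p = 0.0111), lower in 3 of 3 cultures each time. In T>C reads the normalized means were 1101 (SD 44.2), 1277 (SD 176) and 986 (SD 119) in time order, and the 0h and 24h samples overlapped. The T>C difference was -0.06 at 24h against 0h (SE 0.10, adjusted p = 0.876) and -0.20 at 24h against 3h (SE 0.10, unadjusted p = 0.0489 and adjusted p = 0.605 by DESeq2), lower than at 3h in 3 of 3 cultures. In a fit blocked by culture, without batch and surrogate terms, the T>C difference from 3h was -0.37 (SE 0.12) and passed the test (adjusted p = 0.0659). At 3h SOX12 stood 0.14 above 0h in T>C reads (interval -0.04 to 0.32) and 0.10 above it in total reads (interval -0.04 to 0.24), higher in S9CC13_R6 and S9CC47_R5 and lower in S9CC47_R6, and neither passed the test.

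**Figure D2:**
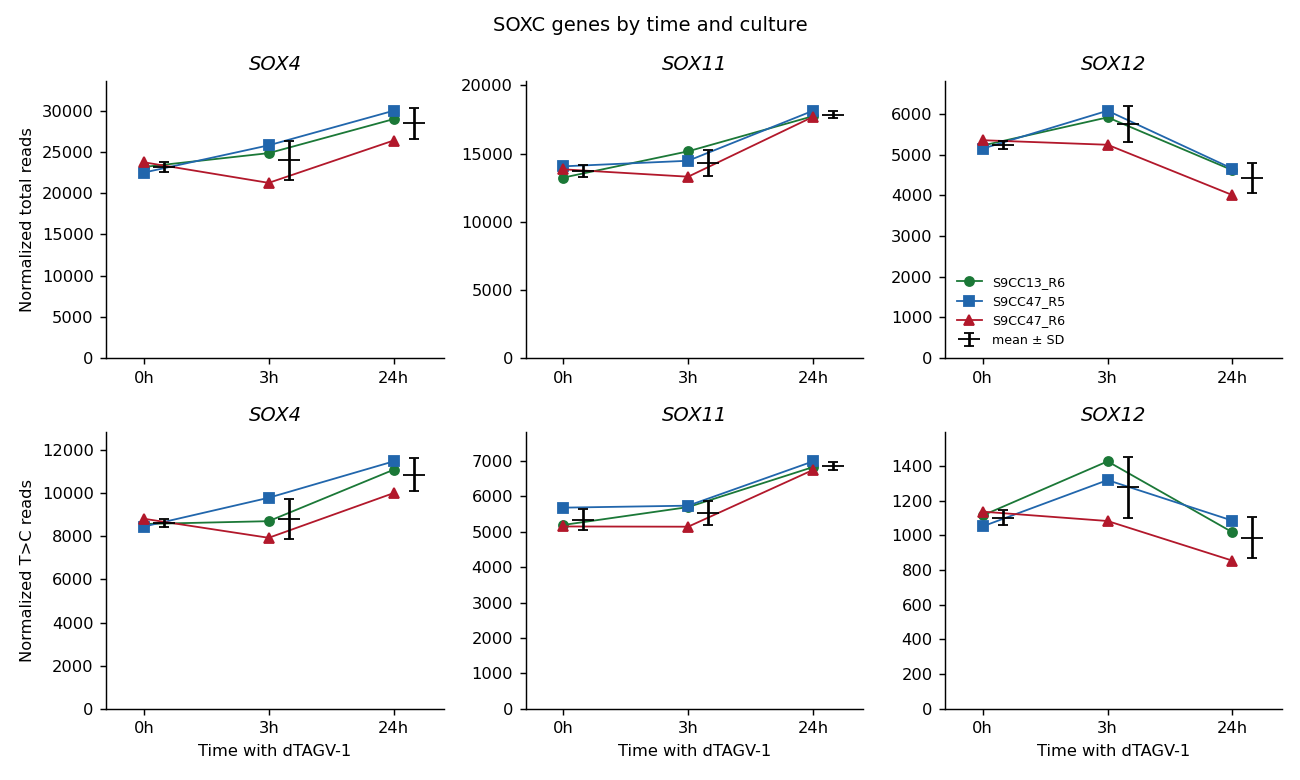
Normalized total reads (top) and T>C reads (bottom) of SOX4, SOX11 and SOX12 at 0h, 3h and 24h of dTAGV-1, with a line for each culture and the mean ± SD of 3 samples in black, on axes that start at 0. SOX4 and SOX11 are highest at 24h in all 3 cultures, and SOX12 total reads are lowest there in all 3.

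By count, the 3h contrast with 0h called 0 of the 5 SOX genes tested in T>C reads (DESeq2, adjusted p under 0.1), where 1.79% of the 12037 genes tested were. At 24h against 0h 2 of 5 were called, against 4.98% of all genes, and at 24h against 3h 2 of 5, against 1.14%. In total reads 0 of 4 were called at 3h, where 1.89% of 11710 genes were, 3 of 4 at 24h against 0h, where 15.0% were, and 3 of 4 at 24h against 3h, where 5.39% were. For both counts of 0, no member had an unadjusted p under 0.05, and edgeR also called 0 with none under 0.05. The median log2 difference of the 5 members at 24h against 0h in T>C reads was 0.38, beside 0.00 over all genes tested. That median is the value of SOX4 and does not describe the members as a set. SOX12 and SOX7 stood at -0.06 and 0.06. SOX2, with 1 to 7 T>C reads per sample, stood above the median at 0.45 (SE 1.21), but at -0.126 with the replicate block. In total reads the median over the 4 members was 0.08, beside 0.00. The contrasts with 0h and with 3h share the 24h samples.

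**Figure D3:**
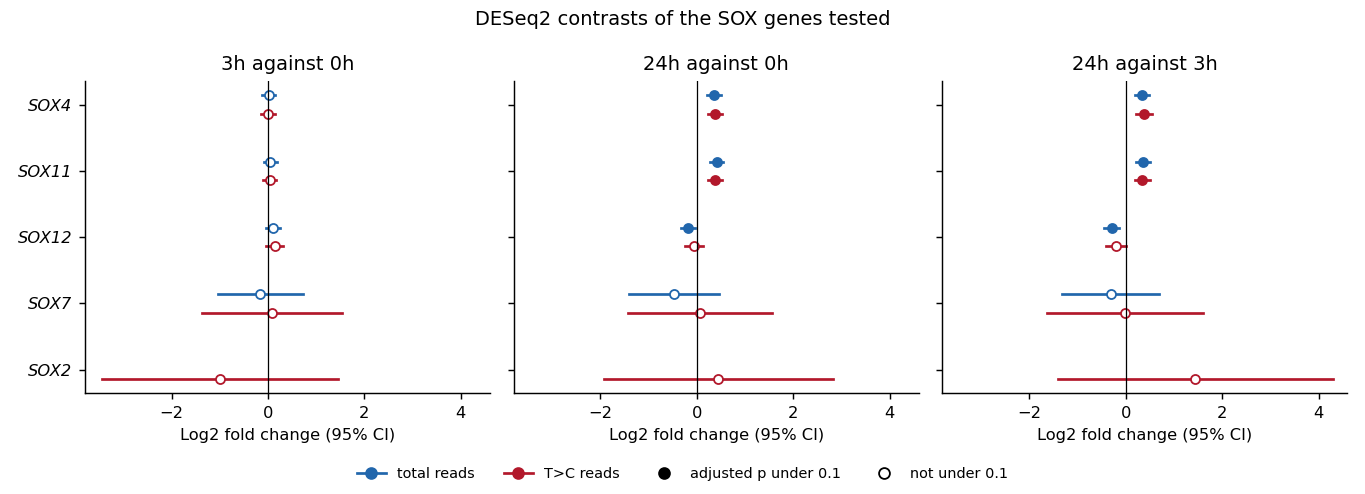
Log2 fold change with its 95% interval for the members tested, in 3 DESeq2 contrasts, for total reads (blue) and T>C reads (red), with filled points for adjusted p under 0.1. SOX4 and SOX11 lie to the right of 0 in both contrasts of 24h, SOX12 to the left in total reads, and the intervals of SOX7 and SOX2 reach beyond 1 log2 unit.

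Leaving out a culture left 6 samples and far fewer calls over all genes. Without S9CC47_R6, only 0.586% of genes passed in T>C reads at 24h against 0h, and none of the 10 genes was called: SOX4 stood at 0.40 (adjusted p = 0.966) and SOX11 at 0.35 (adjusted p = 1.0). In total reads without it, 0.484% passed and SOX4, SOX11 and SOX12 stood at 0.41, 0.34 and -0.14, none of them called. Without S9CC13_R6, SOX4 kept its call at 24h against 0h in T>C reads (0.47, adjusted p = 0.0492) and in total reads (0.50, adjusted p = 0.00867). SOX11 did not, at 0.33 (adjusted p = 0.998) and 0.40 (adjusted p = 0.11). Without S9CC47_R5 both kept their calls at 24h against 0h, with 0.35 and 0.45 in T>C reads. At 24h against 3h in T>C reads SOX11 was not called without S9CC13_R6, S9CC47_R5 or S9CC47_R6 (0.32, 0.39 and 0.24, adjusted p = 1.0, 0.141 and 1.0). SOX4 was called there only without S9CC47_R5 (0.43, adjusted p = 0.0412), and not without S9CC13_R6 (0.42, adjusted p = 0.191) or S9CC47_R6 (0.37, adjusted p = 1.0). In total reads both lost the call against 3h without S9CC47_R6 alone, at 0.22 for SOX4 and 0.28 for SOX11. The fall of SOX12 in total reads was not called without any of the 3 cultures (-0.09, -0.18 and -0.14 without S9CC13_R6, S9CC47_R5 and S9CC47_R6), and against 3h it was -0.23, -0.26 and -0.37 in the same order, also not called. In all these fits the differences that had been called kept their sign. Without the single library S9CC13_R6 at 3h, whose T>C share was the lowest, SOX4 and SOX11 kept all 4 calls each, and SOX12 in total reads stood at -0.09 against 0h (adjusted p = 0.903) and -0.24 against 3h (adjusted p = 0.265).

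SOX7, an endothelial factor that also acts in early endoderm, is on hg38 chr8:10723768-10730511, minus strand, with 2 exons in its canonical transcript. Its raw total reads, by culture as above, numbered 26, 18 and 45 at 0h. There were 27, 32 and 17 reads at 3h and 21, 14 and 27 reads at 24h. After scaling for depth, the 24h samples (15.7 to 22.2 normalized reads) lay below the 0h samples (23.1 to 34.9). The fitted difference was -0.47 on the log2 scale with an interval from -1.41 to 0.47, and it did not pass the test (adjusted p = 0.595). Its T>C reads ranged from 5 to 22 per sample, and the T>C difference at 24h was 0.06 (interval -1.43 to 1.56). Pooled over cultures, 34 of 89 SOX7 reads carried a conversion at 0h (38.2%, Wilson 95% interval 28.8% to 48.6%), 32 of 76 at 3h (42.1%, interval 31.6% to 53.3%) and 39 of 62 at 24h (62.9%, interval 50.5% to 73.8%). Per sample the shares were 26.9%, 27.8% and 48.9% at 0h and 57.1%, 64.3% and 66.7% at 24h, and at 3h they spread from 18.5% to 65.6%. The pooled intervals treat reads as independent and do not cover the spread between cultures. SOX7 was below the mean of 50 total reads set for testing a share, so these shares are a description.

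SOX2, a core pluripotency factor, is on hg38 chr3:181711925-181714436, plus strand, within the long noncoding gene SOX2-OT on the same strand. It had 133 total reads over the 9 samples, between 4 and 21 per sample, and 32 T>C reads, between 1 and 7. The lowest sample was S9CC47_R6 at 3h (4 reads), and in CPM the values ran from 0.225 there to 0.936 in S9CC13_R6 at 0h. SOX2 entered the T>C test through 4 samples at 1 CPM or above. Its T>C difference was -0.99 at 3h (interval -3.44 to 1.46) and 0.45 at 24h (interval -1.92 to 2.82), and neither was detectable at this depth. Mean total CPM was 0.745 (SD 0.176), 0.608 (SD 0.332) and 0.663 (SD 0.239) in time order. Total reads did not reach the filter and were not tested.

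The T>C share of a gene is the part of its reads that carry a conversion. It rises with the part of the RNA that is new and also depends on how many convertible bases the sequenced end holds, so only differences between times were tested. The share of SOX4 averaged 37.8% (SD 2.03) before dTAGV-1, 34.5% (SD 4.50) after 3h and 40.8% (SD 1.60) after 24h. SOX11 averaged 39.6% (SD 2.87), 36.2% (SD 4.11) and 41.0% (SD 1.61). SOX12 averaged 21.3% (SD 0.563), 20.6% (SD 0.364) and 23.7% (SD 1.32). Over the 10727 genes with a mean of at least 50 total reads, the median share was 26.8%, and SOX4, SOX11 and SOX12 stood at the 71.1, 73.0 and 38.9 percentiles, a description in which those bases were not accounted for. The share of whole libraries moved in the same order, with 19.1%, 17.9% and 20.5% (SD 0.852, 1.82 and 0.752). It is divided out below, and what moved it was not tested. The SOX12 share gained 2.42 points (SD 0.861) between 0h and 24h, in each of the 3 cultures, and the 24h samples (22.4% to 25.1%) did not overlap the others. The share of SOX4 was above by 2.93 points (SD 1.53) in 3 of 3 cultures and that of SOX11 by 1.42 points (SD 2.95) in 2 of 3. Exact two-sided permutation tests gave p = 0.1 for SOX12, 0.2 for SOX4 and 0.6 for SOX11, where 0.1 is the smallest p that 3 samples against 3 allow, and all 6 comparisons had an adjusted p of 0.6. Divided by the share of its library, the SOX4 share was 1.98, 1.93 and 1.99 at the 3 times and that of SOX11 2.06, 2.02 and 2.00. For SOX11 the difference between 24h and 0h then turned negative. For SOX12 the values were 1.11, 1.16 and 1.16, and the difference between 24h and 0h was 0.0434 (exact permutation p = 0.5), so the separation of its 24h samples from those at 0h went once the library share was divided out.

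**Figure D4:**
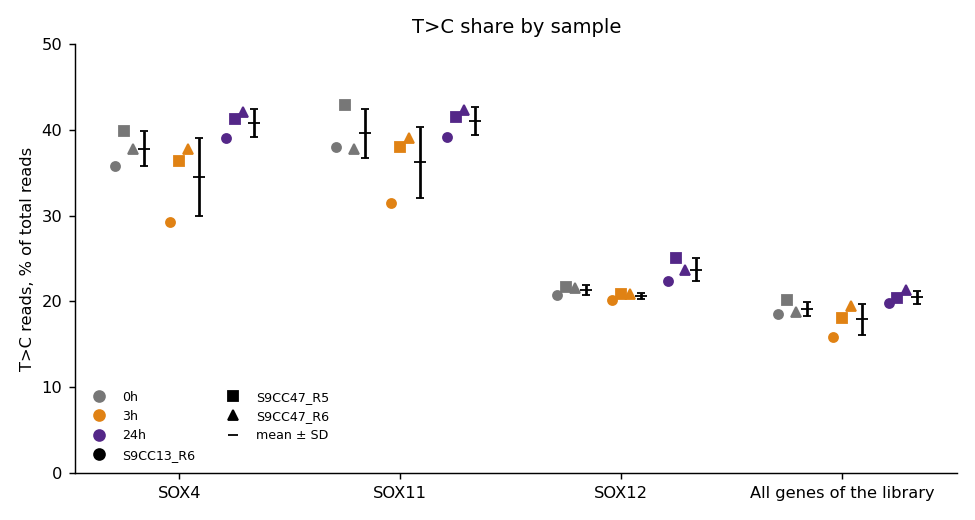
T>C reads as a percent of total reads for SOX4, SOX11, SOX12 and all genes of the library, with a point for each sample (colour for time, shape for culture) and the mean ± SD of 3 samples in black. The lowest SOX4 and SOX11 shares (29.3% and 31.5%) belong to S9CC13_R6 at 3h, which also has the lowest library share, and the SOX12 shares at 24h lie above all its others.

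Ratios of SOXC genes within a sample do not depend on how samples were scaled. The log2 ratio of SOX4 to SOX11 in T>C reads lay between 0.57 and 0.78 in all 9 samples, with means of 0.69, 0.67 and 0.66 at 0h, 3h and 24h. The ratio of SOX4 to SOX12 in T>C reads was 2.94, 3.01 and 2.95 in the cultures before treatment. It was 2.61, 2.89 and 2.87 after 3h and 3.44, 3.40 and 3.55 after 24h. The 3 times did not overlap, with 3h lowest and 24h highest. At 24h SOX4 had gained 0.50 on SOX12 against 0h (SD 0.10 over cultures, 1.41-fold) and SOX11 had gained 0.53 (SD 0.27, 1.44-fold), in 3 of 3 cultures each. In total reads the gains were 0.54 (SD 0.04) and 0.63 (SD 0.13). Each had an exact two-sided permutation p of 0.1, the smallest that 3 against 3 allow, and an adjusted p of 0.18 over the 18 comparisons of ratios. The SOX4 to SOX11 ratio changed by -0.03 in T>C reads (exact permutation p = 0.5) and -0.09 in total reads (exact permutation p = 0.3) over the same interval.

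**Figure D5:**
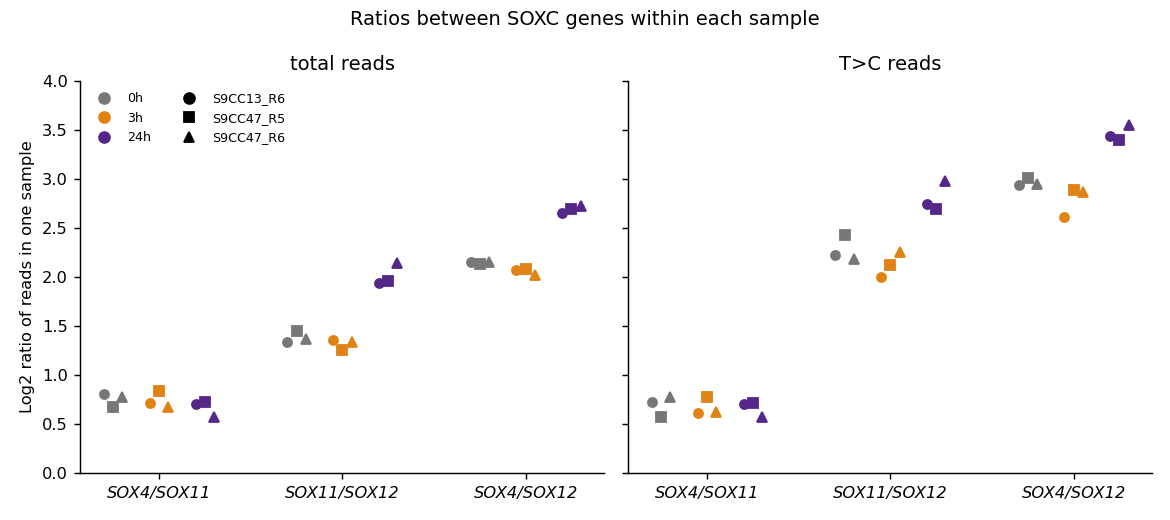
Log2 ratio of the reads of a pair of SOXC genes within each sample, for total reads (left) and T>C reads (right), with colour for time and shape for culture. SOX4 over SOX11 stays between 0.57 and 0.83, and both ratios over SOX12 are highest in the 3 samples at 24h.

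Between cultures, none of the 4 SOX genes tested in total reads was called. For S9CC13_R6 against S9CC47_R6, clones within batch R6, 0 of 4 were called by DESeq2 and by edgeR, with no unadjusted p under 0.05, where 3.38% of all genes were called. For S9CC47_R5 against S9CC47_R6, batches of a single clone, it was again 0 of 4 by both tools with no unadjusted p under 0.05, where 1.65% were called. The differences ranged from -0.02 (SOX7) to 0.11 (SOX12 and SOX4) between clones and from -0.25 (SOX7) to 0.13 (SOX4) between batches. The intervals of SOX4 (-0.09 to 0.30 and -0.06 to 0.32) and SOX11 (-0.14 to 0.22 and -0.12 to 0.24) bound the difference that a culture could carry at this spread. Each of these contrasts sets 1 culture against 1, so they say nothing of clones or batches in general.

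The genes whose T>C pattern over the 9 samples was most like that of SOX11, among the 8676 genes averaging 50 or more normalized T>C reads, were RGS4 (Pearson r = 0.96), CRISPLD2 (0.95) and HEY1 (0.94), and those most like SOX4 were RNF144A (0.94), PLEKHA4 (0.93) and GPBP1L1 (0.92). SOX4 and SOX11 had r = 0.90 with each other, which placed SOX11 at rank 6 for SOX4 and SOX4 at rank 20 for SOX11. With SOX12, r was -0.26 for SOX4 and -0.43 for SOX11. The genes most like SOX12 were XRCC6, NKAIN1 and NUCB1 (0.97 each), none of them called at 24h. All these values share 9 libraries and their scaling and are a description.

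SOX9 itself, whose RNA is not what dTAGV-1 removes and so does not check the labels, had 9493, 9961 and 9914 normalized T>C reads at 0h and 19883 to 23542 at 24h. Its rise at 24h against 0h was 1.15 on the log2 scale (SE 0.08, DESeq2 adjusted p = 7.28e-39). At 3h it already stood 0.765 above 0h (SE 0.08, DESeq2 adjusted p = 7.24e-18), in 3 of 3 cultures. In total reads SOX4 outnumbered SOX9 at 0h (log2 ratio 0.41 to 0.55). The ratio was -0.54 to 0.02 at 3h and -0.22 to -0.52 at 24h. In T>C reads SOX9 outnumbered SOX4 already at 0h (log2 ratio -0.24 to -0.15). Of the 9 other SOX genes listed, 5 were tested. SOX5, a SOXD cofactor of SOX9 in cartilage, fell by 0.85 at 3h and by 1.26 at 24h in T>C reads, SOX6 fell by 0.73 at 24h, and SOX8 (0.04) and SOX13 (-0.03) did not pass the test. SOX1 and SOX14, SOXB genes outside the 10 described, had 0 reads in all 9 samples, as did SOX30. In T>C reads the 24h contrast with 0h therefore held SOX genes called higher (SOX4, SOX9, SOX11) and lower (SOX5, SOX6). SOX12 was called lower in total reads only.

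Of 10 listed partner factors of SOX proteins, 7 were tested in T>C reads and 1 was called at 3h, where 1.79% of all genes were. At 24h against 0h, where 4.98% of all genes passed, DESeq2 and edgeR called 0, with 0 at an unadjusted p under 0.05. POU3F3, a POU factor that works with SOXB and SOXC proteins in neural cells, rose by 0.50 in T>C reads at 3h (adjusted p = 9.89e-05), and its difference was 0.16 at 24h (adjusted p = 0.546). POU3F1 rose in total reads at 3h (0.54) and at 24h (0.47). POU5F1, the pluripotency partner of SOX2, had 1 total read and PAX6, its eye and neural partner, had 6. CTNNB1 and RBPJ were expressed at means of 252 and 175 CPM and did not pass the test in any contrast.

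Genes known elsewhere as SOXC targets were split in direction. All 5 listed were tested, and in T>C reads DESeq2 and edgeR called 0 in each of the 3 contrasts, with an unadjusted p under 0.05 for 1 gene, TUBB3 at 24h against 3h. In total reads, with 15.0% of all genes called at 24h against 0h, 1 was higher (MAP2, 0.55, adjusted p = 0.0613) and 2 were lower, TUBB3 (-0.33, adjusted p = 0.024) and DCX (-0.73, adjusted p = 0.000163). TUBB3 and DCX encode a neuronal tubulin and a microtubule-associated protein of migrating neurons. TEAD2 and EZH2 stood at -0.11 and 0.03. Of the 6 listed SOX2 targets only NES, an intermediate filament gene of progenitors, reached 1 CPM (mean 418), and it did not pass the test (0.26 in T>C reads at 24h, adjusted p = 0.215). Of the 6 listed SOXF targets VCAM1 alone had a mean above 1 CPM (52.8), with 0.15 in T>C reads at 24h (adjusted p = 0.72), and PROX1, also tested in T>C reads, did not pass the test either. The medians of the SOXC target list at 24h were -0.05 in T>C reads and -0.11 in total reads, beside 0.00 over all genes in both.

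Markers of the cells in which the low members usually act were mostly near 0. Of 7 pluripotency markers, TDGF1 had 0 reads, POU5F1 1 and NANOG 18 over 9 samples. By contrast, LIN28A (mean 294 CPM) and DPPA4 (37.9 CPM) were expressed. Against 0h, LIN28A fell in T>C reads by 0.53 at 3h (DESeq2 adjusted p = 5.79e-07) and by 0.35 at 24h (DESeq2 adjusted p = 0.00706). The summed level of that list ran from 350 to 414 CPM at 0h and from 282 to 306 CPM at 24h. Of 8 neural progenitor and neuron markers none had a mean of 1 CPM, SOX1 and HES5 were at 0, and the sum ran from 0.708 to 1.49 CPM at 0h and from 2.01 to 2.53 CPM at 24h. LHX2, a forebrain factor and the only one called, rose by 2.10 in total reads at 24h (SE 0.71, adjusted p = 0.0349), where 15.0% of all genes were called. It had 139 total reads over the 9 samples (0.14 to 1.35 CPM). In T>C reads at 24h it did not pass the DESeq2 test (adjusted p = 0.104), although edgeR called it. Of 8 endothelial markers, ERG (16.1 CPM) and TIE1 (2.28 CPM) exceeded 1 CPM, CDH5 had 9 reads and PECAM1 16, and the sum ran from 18.1 to 29.0 CPM at 0h and from 9.97 to 15.2 CPM at 24h. ERG fell by 1.23 at 24h in T>C reads (adjusted p = 1.95e-05). Of 7 definitive endoderm markers none had a mean of 1 CPM, FOXA2 and GATA6 were at 0, and the sum stayed between 0.295 and 1.29 CPM. The 10 neural crest markers summed to 3392 to 3445 CPM at 0h and 4390 to 4746 CPM at 24h, with 5 called higher and 0 lower in T>C reads, beside 4.98% of all genes called in either direction. MSX1 (1.17 on the log2 scale in total reads, 594 to 1553 CPM over samples) rose most of the 10 at 24h. In total reads NR2F1 (-0.02), NR2F2 (0.00), PDGFRA (-0.21), SNAI2 (0.06) and TFAP2B (0.19) did not pass the test there. The genes called differed between the measures. TFAP2B was called in T>C reads (0.25, DESeq2 adjusted p = 0.0187). PRRX1 was called in total reads (0.40) but not in T>C reads (0.25, DESeq2 adjusted p = 0.424). At 3h in total reads 2 of the 10 were called higher and 2 lower (PDGFRA and SNAI2), where 1.89% of all genes were called. The part of these marker genes in the values of the SOX genes was not tested.

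Some of the members overlap other annotated genes, and the counting was not stated to use strand. In GENCODE, SOX4 and SOX12 each overlap a long noncoding gene on the opposite strand (ENSG00000283480 and NRSN2-AS1), SOX11 overlaps ENSG00000242540 and SOX2 overlaps SOX2-OT on the same strand, SOX7 overlaps PINX1 on the same strand and ENSG00000248896 on the other, SOX15 overlaps MPDU1 and SOX21 overlaps SOX21-AS1. Reads of such neighbours could not be told apart from those of the members here.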

How the data were processed

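The authors deposited raw counts per gene symbol, in a table of total reads and a table of T>C reads with 9 columns each, all used. Per the study's methods, adapter- and poly(A)-trimmed reads were mapped and counted with slamdunk, and the labels name hg38. The counting intervals and strand setting are not given in the sources used here. Molecular identifiers were not stated. The Wilson intervals of pooled SOX7 reads cover counting error only.

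Protein-coding genes (GENCODE 44, matched by symbol) reaching 1 CPM in 3 or more samples entered DESeq2 1.42.0 (R 4.3.3; time, batch and 1 surrogate variable from sva 3.50.0; Wald test; Benjamini-Hochberg adjusted p under 0.1 over all genes tested; no independent filtering). Cultures were compared with time and culture as terms. Intervals of log2 differences are ± 1.96 SE of the DESeq2 fit, which includes the spread between samples. The cultures pair samples across times by clone and batch in the labels. Deviations from group means of samples of a culture correlated at a mean r of 0.175 in T>C reads (range -0.129 to 0.57). In total reads the mean r was 0.269 (range -0.159 to 0.702). edgeR 4.0.16 and the other alternatives are reported at the end. Scripts were tested on simulated data.

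Named genes were the 10 members, SOX9, listed partner, target and marker genes, and the 3 genes most correlated with each member over 50 normalized T>C reads. The members and lists were chosen with earlier results of these data known. Cultures are the replicates, and p-values of the contrasts of times measure the spread between samples of 3 cultures. In the contrasts of cultures, p-values measure the spread of libraries of a culture, not of clones or batches.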

Additional observations from a re-analysis of the deposited data

Results flagged for a closer look

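The changes at 3h and at 24h, each against 0h, differed in T>C reads for 2 of the 5 SOX genes tested and in total reads for 3 of the 4 tested, by the DESeq2 contrast of 24h with 3h, which called 1.14% and 5.39% of all genes. For SOX4 the difference on the log2 scale was 0.37 in T>C reads and 0.34 in total reads. For SOX11 it was 0.35 in T>C reads and 0.36 in total reads. For SOX12 it was -0.29 in total reads, with opposite signs at the 2 times (0.10 at 3h and -0.19 at 24h). Each went the same way in 3 of 3 cultures, but the calls of SOX11 in T>C reads and of SOX12 in total reads were lost with any 1 culture left out. SOX4 in T>C reads lost its call without S9CC13_R6 or S9CC47_R6, and SOX4 and SOX11 in total reads lost theirs without S9CC47_R6. Groups of 3 samples were too small for a test of single outlying samples.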

How the results depend on the processing

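The number of SOX genes called stayed within 1.5 times the reported count under edgeR, TMM factors in DESeq2, the replicate block, no surrogate variable, all genes with at least 1 count, all biotypes, size factors from total reads (T>C reads) and only the 6 samples compared. With each culture left out, so that fewer samples were fitted, it ran from 0 to 2 at 24h against 0h and from 0 to 1 at 24h against 3h in T>C reads, and from 0 to 2 in both contrasts in total reads. Without a surrogate variable, SOX4 at 24h against 3h (0.25, adjusted p = 0.139) and SOX12 at 24h against 0h (-0.25, adjusted p = 0.126) were no longer called in total reads, nor was the latter with only the 6 samples compared (-0.14, adjusted p = 0.855). The cause was not tested. The replicate block, which pairs samples of a culture, made SOX12 at 24h against 3h in T>C reads a call (-0.37, adjusted p = 0.0659) and changed no other call of a SOX gene. Differences that were not called changed sign as follows. In T>C reads with only the 6 samples compared, SOX4 at 3h was -0.00356, SOX7 at 3h -0.0579, SOX7 at 24h against 3h 0.0109 and SOX2 at 24h -0.38. With size factors from total reads, SOX4, SOX11 and SOX7 at 3h were -0.084, -0.05 and -0.011, and SOX7 at 24h against 3h 0.0774. With the replicate block SOX2 at 24h was -0.126 and SOX7 at 24h against 3h 0.0977, and the latter was 0.0988 without a surrogate variable. With a culture left out, T>C differences at 3h ran from -0.0734 to 0.0498 for SOX4, from -0.805 to 0.367 for SOX7 and from -0.327 to 0.0784 for SOX2. Those at 24h against 0h ran from -0.127 to 1.15 for SOX7 and from -0.0828 to 0.0277 for SOX12, and SOX7 at 24h against 3h from 0.678 to 0.779. In total reads at 3h they ran from -0.0313 to 0.191 for SOX4 and from -0.319 to 0.149 for SOX7. Between clones in total reads SOX7 was 0.201 without 0h and 0.0482 without 24h, and SOX11 -0.0333 without 3h. The change of the SOX11 share at 24h ran from -0.107 to 2.83 points with a culture left out, and divided by the library share it was -0.0666, as that of SOX12 at 3h was 0.0476. At 14 to 45 (SOX7) and 4 to 21 (SOX2) total reads per sample, depth limits what these genes can show.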
